A study of Mus musculus with 16 samples.

Results

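The genes described here are 10 members of the circadian clock, measured by RNA sequencing in the ileal wall of diabetic mice: Arntl, Npas2, Cry1, Per1, Per2, Per3, Nr1d1, Nr1d2, Dbp and Ciart. They were taken by gene symbol from the 41740 rows of each count table, and all 10 were among the 15267 genes with enough counts to test. The question was how their mRNA levels stood in the 3 groups of mice and how far they differed between mice of the same group.

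All 16 mice were STAM mice, a model in which neonatal streptozotocin (day 2) and high-fat feeding, begun at 4 weeks, produce diabetes with steatohepatitis, and by the methods the ieIRKO experiment ran to 20 weeks of age under 12 hours of light and 12 hours of dark. All carried the InsR-flox allele, a floxed insulin receptor gene. Control-STAM-nonINS mice (n = 4, the untreated controls) were Vilin-Cre(-), as the labels spell it, with no insulin. Control-STAM-INS mice (n = 6, the insulin-treated controls) were Vilin-Cre(-) and received insulin, injected under the skin 2 times a day from 6 weeks of age. ieIRKO-STAM-INS mice (n = 6, the ieIRKO mice) were Vilin-Cre(+) and received insulin in the same way, so they have no counterpart without insulin. Villin drives Cre in the intestinal epithelium, whereas RNA was taken from the whole wall, in which muscle, nerve and immune cells keep the receptor. Each library was labelled as a biological replicate. The hour at which tissue was taken is not given in the sources used here, and no group can be aligned to a clock time.

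The mammalian clock is a loop of transcription. ARNTL (also called BMAL1) pairs with CLOCK or its relative NPAS2 and activates genes through the E-box. Among these are the Per and Cry genes, whose products return to the nucleus and repress the pair, Ciart, which encodes a further repressor of it, and Nr1d1 and Nr1d2, which encode the REV-ERB receptors that silence Arntl through the ROR element. The E-box also drives Dbp, a transcription factor that acts on the D-box. Transcripts of the Arntl arm and of the Dbp arm therefore peak at opposite times of day in most tissues, including the gut, where feeding time is a strong cue for the clock.

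The motifs of this loop can be read in the stretch before the start of some members. RefSeq windows on GRCm38.p6 (250 bases before to 50 after each annotated start, 300 in all) were held for 9 of the 10 members, Per2 being the exception. CACGTG, the E-box, was found in 3 of these 9 members (Per1, Cry1 and Ciart), against 8.09% of all genes in the table, and CACGTT or its reverse complement in 2 (Cry1 and Nr1d1), against 5.44%. The D-box TTATGTAA was found in Per3 alone, against 1.11% of genes, and TAGGTCA, the core of the ROR element, in Arntl alone, against 2.97%. TTACGTAA (0.126% of genes) and TGGGTCA (4.57%) were found in no member. All were searched on both strands, and a match describes letters in the window only. The 250 bases before the start of Ciart (chr3:95882229-95882478, minus strand), of Per1 (chr11:69098699-69098948, plus strand) and of Per3 (chr4:151044666-151044915, minus strand) are shown because Ciart and Per1 were the members called by the edgeR test of the 3 groups and Per3 was the member closest to Arntl across the insulin-treated controls, and 27 bases around the Arntl match (chr7:113207531-113207557, plus strand) because Arntl is the reference for the pattern between mice. Capitals mark the motif matches, which are E-boxes in Ciart and Per1, D-boxes in Per3 and the ROR core in Arntl.
Ciart: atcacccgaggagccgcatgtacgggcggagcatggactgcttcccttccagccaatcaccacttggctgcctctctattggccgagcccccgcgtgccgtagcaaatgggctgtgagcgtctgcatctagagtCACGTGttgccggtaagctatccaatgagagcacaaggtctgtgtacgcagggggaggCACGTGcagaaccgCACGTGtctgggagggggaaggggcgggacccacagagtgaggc
Per1: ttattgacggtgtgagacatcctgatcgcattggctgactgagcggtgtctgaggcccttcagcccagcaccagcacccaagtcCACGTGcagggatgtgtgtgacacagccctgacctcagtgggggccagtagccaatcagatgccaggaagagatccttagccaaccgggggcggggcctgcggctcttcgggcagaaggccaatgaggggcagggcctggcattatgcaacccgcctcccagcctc
Per3: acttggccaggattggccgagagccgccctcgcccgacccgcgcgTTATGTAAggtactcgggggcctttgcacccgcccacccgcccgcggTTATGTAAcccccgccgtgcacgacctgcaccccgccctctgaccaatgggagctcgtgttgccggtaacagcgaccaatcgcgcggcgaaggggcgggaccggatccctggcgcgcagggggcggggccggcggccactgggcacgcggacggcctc
Arntl: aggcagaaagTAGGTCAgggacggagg
Counted from the annotated start, the 3 Ciart E-boxes began at -116, -58 and -44, the Per1 E-box at -166, the Per3 D-boxes at -205 and -158, and the Arntl match at 31. Npas2, Nr1d2 and Dbp held none of the motifs searched, which says only that these letters are not in the window.

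Total counts were between 13288018 and 22215382 per library, and no library repeated another. Insr, the targeted gene, did not check the genotype: it was 67.2 ± 13.4 CPM (counts of a gene scaled to a common library size after TMM, mean ± SD throughout, n = 6) in the ieIRKO mice and 62.7 ± 10.1 (n = 6) in the insulin-treated controls, with an edgeR adjusted p of 0.805, and 105 ± 12.3 (n = 4) in the untreated controls. Whether the counted reads fall in the deleted stretch is not given in the sources used here, so libraries are called by their labels. Markers of other cells differed between the groups. The summed level of 6 B and plasma cell genes was 718 to 1771 CPM in the untreated controls, 959 to 1541 in the insulin-treated controls and 1655 to 3115 in the ieIRKO mice, and that of 5 Paneth cell genes was 2226 to 3836, 2836 to 4696 and 723 to 1341. The 5 T cell genes summed to 11.5 to 21.4, 17.4 to 29.2 and 18.1 to 42.9 CPM, with Trac at 3 counts or fewer in every library, whereas 7 smooth muscle genes lay between 2330 and 3629 CPM in all groups. The 8 enterocyte genes summed to 18707 to 32018, 16845 to 29941 and 8313 to 28147 CPM, and 4 genes of mesenteric fat to 21.9 to 186, 36.9 to 154 and 8.44 to 81.7 CPM. Of the 6 pancreatic acinar genes 5 were at 3 counts or fewer in every library. In bulk tissue, fewer cells of a type and less RNA per cell cannot be told apart.

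Levels per kilobase of exon allow the members to be ranked. In the untreated controls, Nr1d1 was highest at 20.4 ± 2.37 CPM per kb, followed by Nr1d2 at 14.6 ± 0.932, Per1 at 12.3 ± 4.42 and Dbp at 11.2 ± 1.85. Per2 at 9.01 ± 1.703, Npas2 at 8.31 ± 1.92 and Cry1 at 7.75 ± 1.88 came next and were within each other's SD. Arntl at 3.13 ± 0.416, Per3 at 2.66 ± 0.250 and Ciart at 2.52 ± 1.16 were the lowest and were not separated by their spread. Nr1d1 also stood first in the insulin-treated groups, at 31.2 ± 8.46 and 23.4 ± 6.27 CPM per kb, and Ciart last, at 1.67 ± 0.606 and 0.896 ± 0.541. Ciart rested on 13 to 135 counts per library, the fewest of the members.

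**Figure D1:**
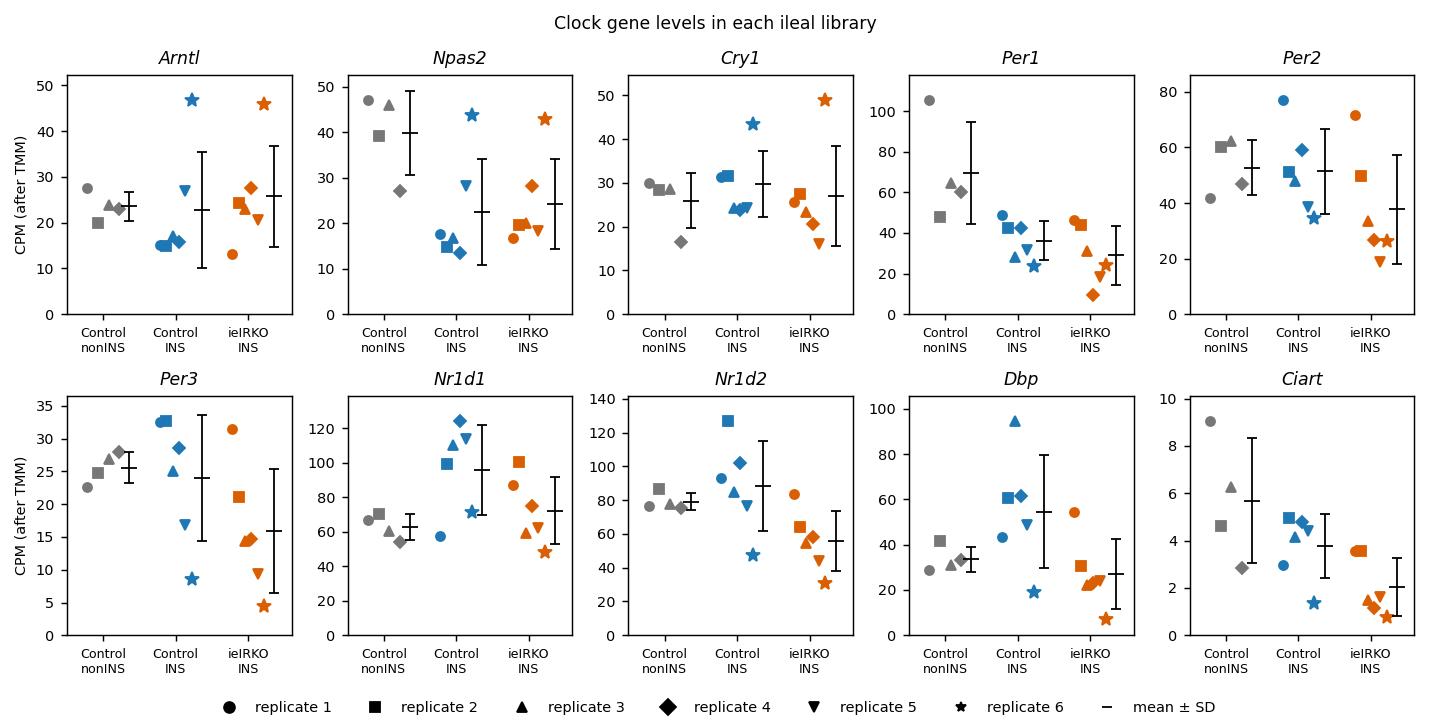
CPM after TMM scaling of the 10 clock genes (vertical axes, each from 0) in the 16 ileal libraries, grouped by mouse group (grey, untreated controls, n = 4; blue, insulin-treated controls, n = 6; orange, ieIRKO mice, n = 6), with the replicate number as the marker shape and the group mean ± SD as a bar. The stars, replicate 6 of both insulin-treated groups, are the highest points of their own group for Arntl, Npas2 and Cry1 and the lowest of their own group for Per3, Nr1d2, Dbp and Ciart.

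The activators Arntl and Npas2 were highest in replicate 6 within both insulin-treated groups. Arntl mRNA in replicates 1 to 4 of the untreated controls was 27.5, 19.8, 23.8 and 23.0 CPM. In replicates 1 to 6 of the insulin-treated controls it was 15.1, 14.9, 17.1, 15.9, 26.9 and 46.7 CPM, and in those of the ieIRKO mice 13.2, 24.2, 23.0, 27.6, 20.5 and 45.9 CPM. The 3 groups overlapped: 4 of 6 insulin-treated control libraries were below every untreated one, replicate 5 was within their range, and replicate 6 was far above it. Npas2, the partner that can stand in for CLOCK, was 47.0, 39.2, 46.0 and 27.1 CPM without insulin. It was 17.6, 14.8, 16.6, 13.4, 28.2 and 43.7 CPM in the insulin-treated controls and 16.8, 19.6, 20.1, 28.2, 18.3 and 42.8 CPM in the ieIRKO mice. In each insulin-treated group 4 of 6 libraries were below the lowest untreated library, and replicate 6 was again the highest. The ratio of Npas2 to Arntl CPM, chosen after the values were seen and given without a test, was 1.17 to 1.98 in the untreated controls, 0.846 to 1.17 in the insulin-treated controls and 0.811 to 1.27 in the ieIRKO mice.

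Among the repressors, Per1, a period gene that also answers acutely to glucocorticoid and other signals, was 105, 48.1, 64.4 and 60.2 CPM in the untreated controls. It was 48.8, 42.5, 28.4, 42.2, 31.8 and 23.8 CPM in the insulin-treated controls and 46.3, 44.1, 31.2, 9.64, 18.3 and 24.1 CPM in the ieIRKO mice. All 6 ieIRKO libraries and 5 of 6 insulin-treated control libraries were below every untreated one. Per2, its closest relative in the loop, ranged from 41.8 to 62.2 CPM (median 53.5) without insulin, from 34.6 to 77.01 (median 49.7) in the insulin-treated controls and from 18.8 to 71.6 (median 30.04) in the ieIRKO mice, and the groups overlapped. Per3 was 22.6, 24.8, 26.9 and 28.0 CPM without insulin, and 32.5, 32.6, 25.03, 28.5, 16.9 and 8.55 CPM in the insulin-treated controls. In the ieIRKO mice it was 31.5, 21.2, 14.4, 14.7, 9.34 and 4.52 CPM, 5 of 6 libraries being below the untreated range and replicate 1 above it. Cry1, a cryptochrome that binds the activator pair, was 16.5 to 30.01 CPM (median 28.5) without insulin, 23.7 to 43.4 (median 27.8) in the insulin-treated controls and 16.05 to 48.9 (median 24.4) in the ieIRKO mice. Its highest value in both insulin-treated groups was that of replicate 6.

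Ciart was 9.04, 4.63, 6.26 and 2.84 CPM in the untreated controls, 2.97, 4.94, 4.13, 4.81, 4.41 and 1.37 CPM in the insulin-treated controls, and 3.54, 3.57, 1.48, 1.17, 1.63 and 0.764 CPM in the ieIRKO mice. In the ieIRKO mice 4 of 6 libraries were below the lowest untreated library, and the other two were above it.

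Nr1d1, which encodes REV-ERB alpha, was 66.8, 70.3, 60.2 and 53.8 CPM without insulin. It was 57.5, 99.3, 110.2, 124, 114 and 71.5 CPM in the insulin-treated controls, where 5 of 6 libraries were above every untreated one, and 87.4, 100.4, 59.4, 75.02, 62.1 and 48.5 CPM in the ieIRKO mice. Nr1d2, its paralogue for REV-ERB beta, was the steadiest member without insulin, at 76.3, 86.3, 77.6 and 75.3 CPM. It was 92.8, 127, 85.0, 102, 76.3 and 47.5 CPM in the insulin-treated controls and 83.8, 63.9, 54.6, 57.9, 44.0 and 31.1 CPM in the ieIRKO mice, where 5 of 6 libraries were below every untreated one. Dbp was 28.7, 41.5, 31.2 and 33.1 CPM without insulin and 43.2, 60.8, 94.4, 61.4, 48.6 and 19.1 CPM in the insulin-treated controls. In the ieIRKO mice it was 54.3, 30.7, 22.05, 23.2, 24.2 and 7.05 CPM. Thus 5 of 6 insulin-treated control libraries were above the untreated range and replicate 6 was below it, while 4 of 6 ieIRKO libraries were below it. On GRCm38, 263 exon bases of Nr1d1 (8.55% of its exons) lie over exons of Thra on the other strand, and 539 of Dbp (18.0%) over Sphk2; whether counting used strand is not given in the sources used here, so those reads may be shared.

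The first comparison asked whether insulin treatment went with a change of clock mRNA in mice with an intact receptor. By point estimate Npas2 and Per1 were lower and Nr1d1 higher in the insulin-treated controls than in the untreated controls, but none of the 10 members passed the threshold of an adjusted p under 0.05 (edgeR quasi-likelihood test, Benjamini-Hochberg over all genes), against 10.5% of all tested genes (3.73% higher and 6.76% lower). The log2 fold change was -0.94 ± 0.36 (SE) for Per1 (adjusted p = 0.109), -0.82 ± 0.34 for Npas2 (adjusted p = 0.135) and 0.61 ± 0.22 for Nr1d1 (adjusted p = 0.0841). These 3 of 10 members had an unadjusted p under 0.05, as did 25.4% of all tested genes. The log2 fold change of Dbp was 0.70 ± 0.45 (edgeR adjusted p = 0.362), and those of Arntl, Per2 and Per3 lay between -0.093 and -0.034, with 95% intervals that reached from -0.79 to 0.70 for Arntl and from -1.001 to 0.81 for Per3. The median over the members was -0.039, beside -0.0043 over all genes. DESeq2 called 1 of 10, Nr1d1 (adjusted p = 0.0316). An exact two-sided permutation test of mean log2 CPM was run on each member in each comparison (30 tests, p not adjusted). It was not run over all genes, so its counts have no share of all genes beside them. In the permutation test Per1 gave p = 0.0190 and Npas2 p = 0.0476 here, and the smallest p this design allows is 0.00952.

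This comparison depended on single libraries. Without replicate 6 of the insulin-treated controls the log2 fold change of Npas2 was -1.13, with an edgeR adjusted p of 0.0243, and without replicate 1 that of Nr1d1 was 0.73, with an adjusted p of 0.0296. With both replicate 6 libraries left out, an alternative chosen after the values were seen, Npas2 (-1.13, adjusted p = 0.00603) and Nr1d1 (0.69, adjusted p = 0.0480) passed. Marker genes also differed here. In the insulin-treated controls 2 of 4 tested T cell genes, 1 of 5 Paneth cell genes and 1 of 7 enteric neuron and glia genes were called higher. The 1 pancreatic acinar gene tested was called lower. The part of these marker genes in the clock values was not tested.

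**Figure D2:**
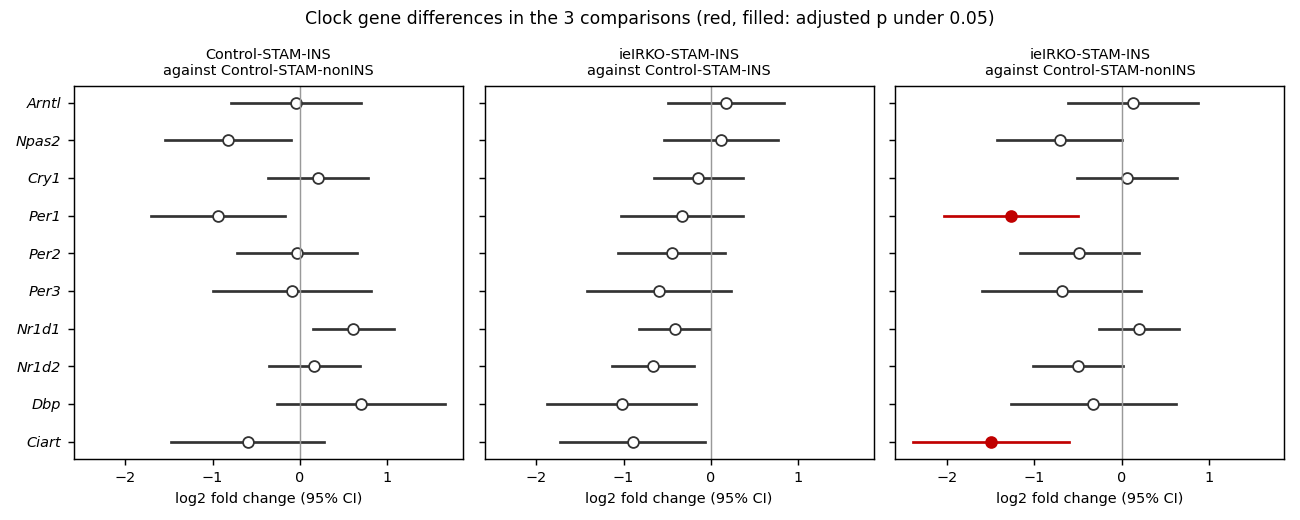
Log2 fold change (horizontal axis) with its 95% confidence interval for the 10 clock genes in the 3 comparisons, from edgeR on all 16 libraries; filled red points have an adjusted p under 0.05. Per1 and Ciart in the ieIRKO mice against the untreated controls, at -1.27 and -1.49, are the filled points.

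The second comparison asked what loss of the receptor in the epithelium did under insulin. By point estimate 8 of 10 members were lower in the ieIRKO mice than in the insulin-treated controls, whereas 53.8% of all tested genes were higher. The median log2 fold change was -0.43 over the members, beside 0.017 over all genes. The members vary together across mice, Per3 and Nr1d2 most closely (r = 0.958 with group means removed), so they are not separate observations. None passed an adjusted p of 0.05 in the edgeR or the DESeq2 fit of the 3 groups, against 0.223% of all tested genes (0.0393% higher and 0.183% lower), and 4 had an unadjusted p under 0.05 in edgeR, as did 11.3% of all tested genes. These were Dbp (log2 fold change -1.02 ± 0.40 SE, adjusted p = 0.362), Ciart (-0.89 ± 0.39, adjusted p = 0.403), Nr1d2 (-0.66 ± 0.22, adjusted p = 0.312) and Nr1d1 (-0.41 ± 0.19, adjusted p = 0.438). Per3 was at -0.60 ± 0.39, Per2 at -0.45 ± 0.29 and Per1 at -0.33 ± 0.33. The 2 activators had positive values, 0.17 ± 0.31 for Arntl and 0.11 ± 0.31 for Npas2, with 95% intervals from -0.49 to 0.84 and from -0.54 to 0.77. In the permutation test Nr1d2 alone was under 0.05 (exact p = 0.0433), with 2 of 6 ieIRKO libraries below every insulin-treated control library.

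With both replicate 6 libraries left out, Dbp was at -1.0, Ciart at -0.90, Nr1d2 at -0.67, Per3 at -0.58, Per2 at -0.46, Nr1d1 at -0.39, Per1 at -0.38 and Cry1 at -0.26, and again none was called. Single libraries moved several of the values that were not called. Without replicate 6 of the ieIRKO mice Arntl was at -0.073, Npas2 at -0.13 and Cry1 at -0.40, and without replicate 6 of the insulin-treated controls Cry1 was at -0.0041. Over the 21 alternatives Per1 lay between -0.51 and -0.15, Per2 between -0.73 and -0.30 and Per3 between -0.91 and -0.40. Of the marker genes, 3 of 5 Paneth cell genes were lower in the ieIRKO mice, and 6 of 6 B and plasma cell genes had higher values with adjusted p from 0.217 to 0.300, none of them called. Their part in the clock values was not tested.

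The third comparison set the ieIRKO mice against the untreated controls, which differ in both insulin and the receptor, so the 2 factors cannot be told apart, and it shares its libraries with the comparisons above. Of the 10 members 2 were called, Per1 and Ciart, both lower, against 13.3% of all tested genes (5.74% higher and 7.59% lower). That count was not tested against the share, and neither call held with only the 2 groups in the fit. The log2 fold change of Per1 was -1.27 ± 0.36 SE (2.40-fold lower, edgeR adjusted p = 0.0315) and that of Ciart -1.49 ± 0.42 (2.82-fold lower, adjusted p = 0.0287). Npas2 at -0.71 ± 0.34 (adjusted p = 0.174), Per3 at -0.69 ± 0.42 (adjusted p = 0.299), Nr1d2 at -0.50 ± 0.24 (adjusted p = 0.186) and Per2 at -0.48 ± 0.32 (adjusted p = 0.334) did not pass. Arntl, Cry1 and Nr1d1 had values between 0.063 and 0.20. The median over the members was -0.49, beside 0.0088 over all genes. In the permutation test Per1 reached the smallest p the design allows (exact p = 0.00952), and Ciart gave 0.0286, Nr1d2 0.0381 and Npas2 0.0476. That test was not run over all genes. In edgeR, 29.4% of all tested genes had an unadjusted p under 0.05 in this comparison.

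Both calls were close to the threshold: Per1 was called in 10 of 19 alternatives and Ciart in 14. With only the 2 groups in the fit, the edgeR adjusted p was 0.0907 for Per1 and 0.0608 for Ciart, and without a filter on low counts it was 0.0574 for Per1. For Per1 the edgeR adjusted p was 0.122 without replicate 1 and 0.0582 without replicate 3 of the untreated controls, and 0.0529, 0.0632 and 0.0571 without replicates 3, 5 and 6 of the ieIRKO mice. For Ciart it was 0.121 and 0.0689 without replicates 1 and 3 of the untreated controls and 0.0590 and 0.0564 without replicates 3 and 5 of the ieIRKO mice. The log2 fold changes stayed between -1.45 and -0.996 for Per1 and between -1.73 and -1.18 for Ciart over the 19 alternatives. Npas2, not called in the fit above, was called in 2 of them, and no other member was called in any. In this comparison 3 of 6 B and plasma cell genes and 3 of 4 tested T cell genes were higher, and 2 of 5 Paneth cell genes lower, and their part in the 2 calls was not tested.

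Csnk1e, Bhlhe40 and Rora, regulators of the loop, were lower in both insulin-treated groups than in the untreated controls. Of 15 further core clock genes and clock regulators tested (Rorb had too few counts), 3 fell in the insulin-treated controls against the untreated controls and none rose, where 10.5% of all tested genes were called and 6.76% were called lower. Csnk1e, a casein kinase that phosphorylates PER proteins, was 41.8 to 54.9 CPM in the 4 untreated libraries and 21.7 to 26.5 in the 6 insulin-treated control libraries (log2 fold change -0.97 ± 0.087 SE, edgeR adjusted p = 1.08e-05). Bhlhe40, an E-box repressor also known as DEC1, was 104 to 195 CPM against 57.2 to 98.2 (-1.05 ± 0.19, adjusted p = 0.00281). The 2 groups did not overlap for either gene. Rora, an activator at the ROR element, was 7.998 to 11.5 CPM against 4.71 to 8.24 (-0.71 ± 0.15, adjusted p = 0.00600), with 5 of 6 insulin-treated control libraries below every untreated one.

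The same 3 of 15 fell in the ieIRKO mice against the untreated controls, beside 13.3% of all tested genes called and 7.59% called lower. There Csnk1e was 21.9 to 24.96 CPM (-0.94 ± 0.087, adjusted p = 6.87e-06), Bhlhe40 48.4 to 86.5 CPM (-1.22 ± 0.19, adjusted p = 0.000903) and Rora 5.73 to 7.05 CPM (-0.59 ± 0.15, adjusted p = 0.0147); the comparisons share the untreated libraries. Without replicate 1 of the untreated controls the adjusted p of Rora in the latter was 0.0646. Between the 2 insulin-treated groups none of the 15 was called by edgeR or DESeq2, with 3 at an unadjusted p under 0.05, beside the 11.3% of all tested genes. There the log2 fold change of Csnk1e was 0.028 ± 0.080, with a 95% interval from -0.14 to 0.20.

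Of 10 genes whose mRNA cycles in many tissues, 2 fell in the insulin-treated controls against the untreated controls, beside the 6.76% of all tested genes called lower. Klf9, a Krüppel-like factor that also responds to glucocorticoid, was 84.1 to 135 CPM without insulin and 58.6 to 81.3 with it (-0.55 ± 0.15 SE, edgeR adjusted p = 0.0208), and Klf10, another factor of that family, was 50.3 to 146 against 32.6 to 66.8 (-1.03 ± 0.31, adjusted p = 0.0478). Neither was called without replicate 1 of the untreated controls (adjusted p = 0.113 and 0.181), and Klf10 was called in 7 of 19 alternatives. Against the same untreated mice, 3 fell in the ieIRKO mice, beside the 7.59% of all tested genes called lower: Klf9 (43.0 to 67.7 CPM, -0.84 ± 0.15, adjusted p = 0.00142), Por, the reductase that supplies electrons to cytochromes P450 (-1.03 ± 0.26, adjusted p = 0.0166), and Usp2, a deubiquitinating enzyme (-0.77 ± 0.20, adjusted p = 0.0192). Without replicate 1 of the untreated controls the adjusted p was 0.0508 for Por and 0.0842 for Usp2, and without replicate 3 it was 0.0560 for Por. Between the insulin-treated groups none of the 10 was called by either tool, 2 having an unadjusted p under 0.05 in edgeR, beside the same 11.3%.

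The members differed widely between mice of the same group. The SD of log2 CPM within groups, pooled over the 16 libraries, was 0.37 for Nr1d1, 0.43 for Nr1d2, 0.44 for Cry1, 0.52 for Per2, 0.54 for Npas2, 0.55 for Arntl, 0.63 for Per1, 0.74 for Ciart, 0.76 for Per3 and 0.77 for Dbp. The median over all 15267 tested genes was 0.24, and the members lay between percentiles 72.5 (Nr1d1) and 95.7 (Dbp) of those genes. Clock, whose mRNA is nearly constant over the day in many tissues, was at 0.14 (percentile 13.3), and the kinase gene Csnk1d at 0.074 (percentile 0.445). A wide spread was also found outside the members: 11 of the 15 further core clock genes and regulators and 9 of the 10 output genes were above the median of all genes, Tef being at 0.60 (percentile 90.6), Hlf at 0.56 (88.4), Tsc22d3 at 0.54 (87.1), Cry2 at 0.53 (86.9) and Nfil3 at 0.51 (85.5).

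**Figure D3:**
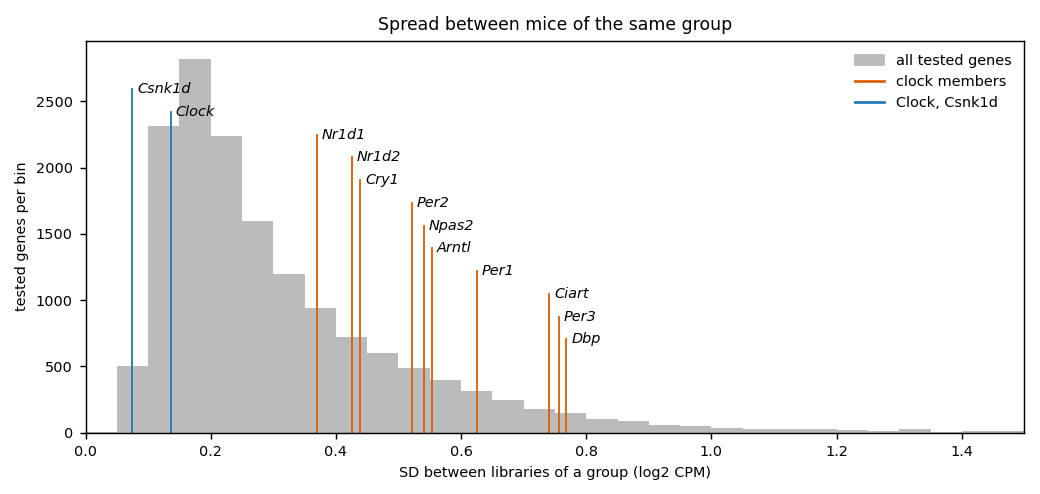
SD of log2 CPM between libraries of the same group (horizontal axis, shown to 1.5) for the 15267 tested genes (grey bars, genes per bin of 0.05), with the 10 clock members in orange and Clock and Csnk1d in blue. All 10 members lie to the right of the median of 0.24, and Clock and Csnk1d to its left.

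For 8 of 10 members, Per1 and Ciart excepted, the coefficient of variation was smallest in the untreated mice, of which there were 4. The coefficient of variation of Nr1d2 was 6.39% in the untreated controls, 29.9% in the insulin-treated controls and 32.0% in the ieIRKO mice. That of Per3 was 9.38%, 39.8% and 59.3%, and that of Dbp 16.5%, 45.6% and 57.7%. For Per1 it was 35.8%, 26.7% and 49.97%, and for Ciart 46.3%, 36.3% and 60.3%, lowest in the insulin-treated controls. Without the replicate 6 libraries, an alternative chosen after the values were seen, 6 of 10 members had their smallest coefficient in the untreated mice, Npas2 and Cry1 being added to the exceptions, and that of Per3 was 24.0% in the insulin-treated controls and 46.7% in the ieIRKO mice. These are descriptions, and the difference in spread between groups was not tested. The share of all tested genes with their smallest coefficient in the untreated mice was not counted, so this is not shown to be particular to the members.

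In 5 of the 16 libraries more than 5 of the 10 members were at the highest or lowest value of their group. Each gene has a highest and a lowest library in its group, so some members are at an extreme by arrangement alone. The share of all tested genes at an extreme in each library was not counted, so these counts are not shown to be particular to the members. In replicate 6 of the insulin-treated controls, 9 of 10 members were at the extreme of their group, Arntl, Npas2 and Cry1 being the highest and Per1, Per2, Per3, Nr1d2, Dbp and Ciart the lowest. In replicate 6 of the ieIRKO mice it was 8 of 10, with the same 3 highest and Per3, Nr1d1, Nr1d2, Dbp and Ciart lowest. Replicate 1 of the ieIRKO mice, with 7 of 10, was the reverse, with Arntl and Npas2 lowest and Per1, Per2, Per3, Nr1d2 and Dbp highest. Of the 4 untreated controls, where an extreme is easier to reach, replicate 1 held 8 (Arntl, Npas2, Per1, Cry1 and Ciart highest and Per2, Per3 and Dbp lowest) and replicate 4 held 6.

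The log2 ratio of Arntl to Dbp CPM sets one arm of the clock against the other within a library. It was 1.28 and 2.68 in the replicate 6 libraries of the insulin-treated controls and the ieIRKO mice, the highest of all 16. The other 5 insulin-treated control libraries were between -2.46 and -0.85, the other 5 ieIRKO libraries between -2.03 and 0.25, and the 4 untreated libraries between -1.06 and -0.065. Among the markers, smooth muscle genes summed to 3097 CPM in that of the insulin-treated controls and 3055 in that of the ieIRKO mice, inside the range of the other libraries, and enterocyte genes to 25567 and 16628 CPM, also inside their groups' ranges. Paneth and goblet cell genes were at their group's highest in replicate 6 of the insulin-treated controls, with 4696 and 10792 CPM. The hour of sampling of each mouse was not known here, and the part of the hour and of cell composition in these libraries was not tested.

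**Figure D4:**
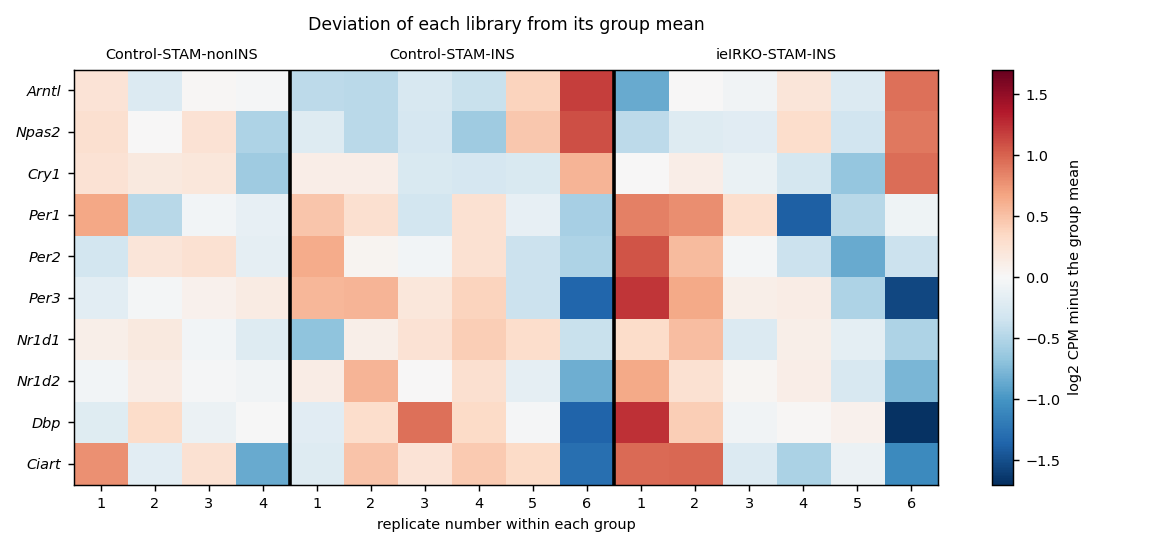
Log2 CPM of each clock gene minus the mean of its group (colour; red above and blue below the mean) in the 16 libraries, ordered by group and replicate number. Columns 6 of both insulin-treated groups are red for Arntl, Npas2 and Cry1 and blue for Per3, Nr1d2, Dbp and Ciart, and column 1 of the ieIRKO mice has the opposite colours for Arntl, Npas2, Per3, Nr1d2 and Dbp.

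Arntl was set against 5 other members across mice within each group of 6, which gave 10 relations (log2 CPM, exact two-sided permutation of the pairings, Benjamini-Hochberg over the 10). In the insulin-treated controls, Per3 fell as Arntl rose in every pair of libraries (Pearson's r = -0.996, Spearman's rho = -1, exact permutation p = 0.00278, adjusted p = 0.0278 for each, n = 6), and r was -0.996 again without replicates 5 and 6, the 2 libraries farthest from the median of Arntl. In the ieIRKO mice, Npas2 rose with Arntl (r = 0.923, exact permutation p = 0.00556, adjusted p = 0.0278; rho = 0.943, p = 0.0167, adjusted p = 0.0833; n = 6), and r was 0.908 without replicates 1 and 6. No other relation passed the adjustment.

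The relations of Arntl with Dbp, and those with Npas2 and Per3 in the other group, did not pass and were not kept without the 2 libraries farthest from the median of Arntl. Arntl and Dbp had r = -0.805 in the insulin-treated controls (rho = -0.314, adjusted exact permutation p = 0.213 and 0.705) and r = -0.948 in the ieIRKO mice (rho = -0.714, adjusted p = 0.0972 and 0.340), but without those 2 libraries r was 0.860 and 0.0269. Without replicate 6 alone it was -0.195 and -0.867. Arntl and Npas2 in the insulin-treated controls had r = 0.972 (rho = 0.714, adjusted exact permutation p = 0.0972 and 0.340) and 0.0665 without them, but 0.915 without replicate 6 alone. Arntl and Per3 in the ieIRKO mice had r = -0.838 (rho = -0.486, adjusted exact permutation p = 0.133 and 0.699) and 0.596 without them, but -0.572 without replicate 6 alone. Cry1 and Nr1d1 showed r between -0.609 and 0.619 with Arntl, rho between -0.371 and 0.429, and adjusted exact permutation p from 0.236 to 0.675 for r and from 0.699 to 1 for rho.

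**Figure D5:**
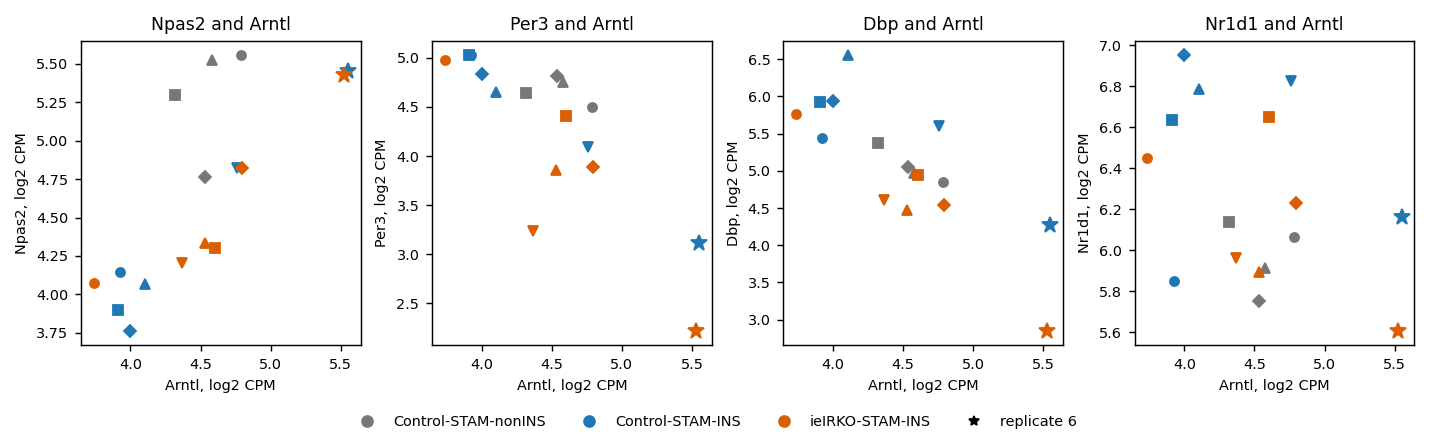
Log2 CPM of Npas2, Per3, Dbp and Nr1d1 (vertical axes) against that of Arntl (horizontal axes) in the 16 libraries, coloured by group, with replicate 6 as a star. Npas2 tends to rise and Per3 and Dbp to fall with Arntl, and the 2 stars lie at the right end of each panel. Within neither group of 6 did the relation with Dbp pass the adjustment.

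Over all 16 libraries, with group means removed, Arntl had r = 0.906 with Npas2 and 0.526 with Cry1, and -0.886 with Per3, -0.885 with Nr1d2, -0.870 with Dbp, -0.637 with Ciart and -0.634 with Per2. Per3 and Nr1d2 were the closest pair of all (r = 0.958). Per1 and Nr1d1 were looser, with r = -0.398 and -0.372 to Arntl. Without both replicate 6 libraries, which leaves 14, r with Arntl was 0.728 for Npas2, -0.680 for Per3, -0.655 for Nr1d2, -0.627 for Per2, -0.619 for Dbp and -0.171 for Ciart, and it changed sign for Cry1 (-0.188) and Nr1d1 (0.102). These values are descriptions without a test, since the points share their libraries.

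The genes outside the members whose pattern was most like that of Arntl were named by the same measure, among 11178 genes with a mean of 5 CPM or more. For them r was not computed without the replicate 6 libraries. Glipr2 (r = 0.919), Lss (0.888), which encodes lanosterol synthase, Mvd (0.879), which encodes mevalonate diphosphate decarboxylase, Rdh11 (0.873) and Insl6 (0.866) had the highest r. Tef (-0.883), a transcription factor of the same family as Dbp, Nmrk1 (-0.845), a nicotinamide riboside kinase, Tspan4 (-0.824), Trib3 (-0.823), a pseudokinase, and Lrrc75b (-0.812) had the lowest. Tef ranged from 45.6 to 127 CPM in the insulin-treated controls and from 23.8 to 125 in the ieIRKO mice, against 86.1 to 102 without insulin. Tspan4 is also among the 10 genes described above as cycling in many tissues. Its exons share 292 bases (13.4%) with Chid1 on the other strand, with the same limit as for Dbp. Hlf, the third factor of that family, had r = -0.767, and Nfil3, which represses at the D-box, 0.700. Of these 10 most and least alike genes, Nmrk1 alone was called in a comparison, beside 13.3% of all tested genes in that comparison, being lower in the ieIRKO mice than in the untreated controls (log2 fold change -0.64 ± 0.19 SE, edgeR adjusted p = 0.0368).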

How the data were processed

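RNA from the whole ileal wall was DNase-treated and sequenced on NovaSeq from directional libraries. The authors aligned the reads to GRCm38 (mm10) in CLC Genomics Workbench and deposited raw read counts per gene, 1 table for each of the 16 libraries. Groups were taken from the genotype and treatment labels. Counts were tested with edgeR 4.0.16 (R 4.3.3) on all 16 libraries in 1 fit of 3 groups: filterByExpr (minimum count 10), TMM scaling, robust quasi-likelihood test and Benjamini-Hochberg adjustment over 15267 genes at 0.05. SE is the size of the log2 fold change divided by the root of F, and 95% intervals use the t distribution on the fitted degrees of freedom. Log2 CPM used a prior count of 2. Exact permutation tests used scipy 1.17.1. The fit was tested on simulated data. Exon lengths and positions came from GENCODE on GRCm38. Alternatives were DESeq2 1.42.0, other normalizations, filters and tests, only the groups compared, a replicate block, and leaving out libraries. The members and gene lists were chosen with earlier results of these data known. Genes named were the members, called genes of both clock lists, the 5 most and 5 least like Arntl, Insr and overlapping genes. The p-values of group differences set each difference against the spread between mice of a group, and those of the correlations come from permuted pairings.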

Additional observations from a re-analysis of the deposited data

Results flagged for a closer look

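Cry1 in replicate 4 of the untreated controls, at 16.5 CPM, lay far below the other 3 libraries of its group, which were between 28.3 and 30.01 CPM. The gap to the nearest library was 0.902 of the range of the group on the log2 scale. Of 30 group and gene combinations examined in this way, 1 stood apart, and chance gives about 1.5.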

How the results depend on the processing

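Of the 30 log2 fold changes of the members, 23 kept their direction under every alternative, and of 590 values 543 kept both direction and side of the threshold. In the first comparison (insulin-treated against untreated controls), where edgeR called 0 members, DESeq2 called 1 (Nr1d1), the fit of only the 2 groups 1 (Per1), and the fit without both replicate 6 libraries, chosen after seeing the data, 2. Leaving out single libraries gave 0 to 1 there, 0 to 0 in the second (ieIRKO mice against insulin-treated controls) and 0 to 2 in the third (ieIRKO mice against untreated controls), where all libraries gave 2. In the third the fit without a filter on low counts called 1 (Ciart) and the fit of only the 2 groups 0. Over all genes, DESeq2 called 123 and the likelihood ratio test 90 between the insulin-treated groups, against 34, and the fit of only the 2 groups called 1038 against 2036 in the third comparison. Leaving out replicate 1 of the untreated controls gave 824 against 1602 in the first comparison and 1093 in the third. The cause of these differences was not tested.

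The replicate numbers did not pair the libraries: the correlation of deviations over all genes was between -0.0943 and 0.179 for libraries of the same number, and not every library correlated best with its own number. Over the 10 members alone it was 0.549, 0.716, -0.199, -0.317, 0.648 and 0.960 for numbers 1 to 6 between the insulin-treated groups, and -0.402 to 0.229 between each of them and the untreated controls. With a replicate block the counts of members called were 1 (Npas2), 1 (Nr1d2, edgeR adjusted p = 0.00857) and 2 (Npas2 and Ciart, with Per1 at 0.0582) in the 3 comparisons. The share of all tested genes called with the block is not given here, so these counts stand without a background. The block turned Per2 to 0.17 and Per3 to 0.23 in the first comparison, and Arntl to -0.23 and Cry1 to -0.076 in the third. Without both replicate 6 libraries these 4 values were 0.059, 0.084, -0.12 and -0.19.

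Leaving out single libraries moved the log2 fold change across 0 for Arntl (-0.39 to 0.053), Per2 (-0.19 to 0.060) and Per3 (-0.20 to 0.084) in the first comparison. It did so for Arntl (-0.073 to 0.52) and Npas2 (-0.13 to 0.42) in the second, and for Arntl (-0.12 to 0.26) and Cry1 (-0.19 to 0.18) in the third. The number of relations with Arntl that passed was 2, and 0 to 1 with 1 library left out: 0 without any 1 of the insulin-treated controls and 1 without any 1 of the ieIRKO mice, a group of 5 having fewer pairings. Pearson's r crossed 0 for Cry1 (-0.537 to 0.780 in the insulin-treated controls and -0.186 to 0.902 in the ieIRKO mice) and for Nr1d1 (-0.774 to 0.381 in the insulin-treated controls). Over all libraries, leaving out both replicate 6 libraries turned r with Arntl to -0.188 for Cry1 and 0.102 for Nr1d1. Upper-quartile scaling raised the members with an exact permutation p under 0.05 from 2 to 3 in the first comparison, adding Nr1d1, and a prior count of 0.5 changed none of these counts. The permutation test was not run over all genes. Depth limits Ciart most, with as few as 13 counts in a library.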
